A study of Mus musculus with 6 samples.

Results

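The calcium/calmodulin-dependent protein kinase II (CaM kinase II) genes were examined in inguinal white adipose tissue (iWAT) of mice lacking Cebpa, the gene of the transcription factor C/EBPα, in adipocytes. The family has 4 genes, Camk2a, Camk2b, Camk2d and Camk2g, which encode the alpha, beta, delta and gamma subunits, out of 36144 gene symbols in the deposited table, and all 4 had enough counts to be tested. The family was chosen by the strong rise of Camk2b counts between the genotypes in these same libraries, so the values of Camk2b are given as a description with no test. Camk2a, Camk2d and Camk2g belong by family and not by their own values.

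RNA was sequenced from whole iWAT of 10-week-old, random fed female C57BL6/J mice. There were 3 Cebpa_fl/fl libraries, from control littermates that carried the floxed Cebpa alleles without Cre, and 3 Cebpa_ASKO libraries, from mice with the same floxed alleles plus a Cre recombinase under the Adipoq promoter, and these groups are called controls and knockouts. The promoter becomes active late in adipocyte differentiation, and cells other than adipocytes retain Cebpa. Both inguinal depots of an animal were pooled after the lymph nodes were removed, and all 6 libraries carried 1 batch number.

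CaM kinase II is a serine/threonine kinase built as a ring-like holoenzyme of many subunits, and subunits of different genes can mix in a single holoenzyme. Calcium-loaded calmodulin opens each subunit, and a neighbouring subunit can then phosphorylate it on a threonine of the regulatory segment, which keeps the kinase partly active after calcium has fallen. The alpha and beta subunits are best known from neurons, where the beta subunit also binds actin, and beta is also found in skeletal muscle, while delta and gamma are found in most tissues.

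The coding stretch around that threonine shows how far the genes differ at the level of reads. For each gene other than Camk2a, 63 bases of coding sequence from 1 abundant full-length transcript are given, 5′ to 3′, with the threonine codon, number 287 in each, in the middle. Capitals mark the 23 positions at which the 3 sequences do not all carry the same base, and 40 positions were alike. The segments lie in exon 11 of each transcript, at chr11:5988967-5989029 (minus strand) for Camk2b, chr3:126797711-126797773 (plus strand) for Camk2d and chr14:20760409-20760471 (minus strand) for Camk2g, in GRCm38.
Camk2b-209: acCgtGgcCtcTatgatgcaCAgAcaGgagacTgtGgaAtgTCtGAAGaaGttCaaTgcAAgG
Camk2d-202: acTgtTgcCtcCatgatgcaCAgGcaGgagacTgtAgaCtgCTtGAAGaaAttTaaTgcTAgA
Camk2g-203: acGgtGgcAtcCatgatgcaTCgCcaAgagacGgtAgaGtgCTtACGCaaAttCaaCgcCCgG

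Camk2b and Camk2d were identical at 51 of these 63 bases, Camk2b and Camk2g at 43, and Camk2d and Camk2g at 45. The longest run shared by any pair was 11 bases. Over all annotated transcripts, 6 of the 9168 distinct 31-base words of Camk2b (0.065%) also occurred in another CaM kinase II gene, against 8 of 7473 for Camk2a (0.107%), 2 of 22818 for Camk2d (0.009%) and 0 of 6685 for Camk2g. Words of this length are what distinguishes genes in pseudoalignment with the usual settings, and nearly all of them were particular to 1 family member. No other annotated gene overlapped Camk2b or Camk2g, while an antisense gene, Gm15551, lies within Camk2d, and the use of strand in the counting was not given in the sources used here.

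The libraries held 46237121 to 49477671 estimated counts in Cebpa_fl/fl and 33141769 to 42243013 in Cebpa_ASKO. Levels are given as CPM (counts scaled to library size) after TMM scaling, which corrects for differences in library composition, except where TPM are named. TPM values are estimates of transcript abundance divided by transcript length and are the only ones used to compare one gene with another. In CPM, Cebpa itself stood at 448, 465 and 498 in controls and at 37.7, 45.8 and 37.2 in knockouts, a log2 fold change of −3.55 ± 0.131 (SE; edgeR adjusted p = 0.000163), in the direction the labels give. Of 16069 genes tested with edgeR, 840 (5.23%) were called at an adjusted p below 0.05, 223 higher (1.39%) and 617 lower (3.84%), and the median log2 fold change of all genes tested was 0.02. The p-values measure the spread among 3 libraries per genotype.

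Camk2b, the beta subunit gene (ENSMUSG00000057897.14, chr11:5969644-6066362, minus strand), had the lowest mean TPM of the family in control fat and a much higher level in knockout fat. The 3 Cebpa_fl/fl libraries had 3.01, 1.70 and 2.80 CPM, and the 3 Cebpa_ASKO libraries had 37.7, 29.5 and 36.2 CPM. Every knockout library was far above every control, and the spread within each genotype was small beside the gap between them. The means were 2.50 ± 0.704 and 34.5 ± 4.39 CPM (SD, n = 3 each), and the fitted log2 fold change was 3.79 ± 0.238 (SE). The control values rest on 135, 80 and 132 counts. Ordered by log2 fold change, the value that chose the family, Camk2b was number 14 of the 16069 genes tested.

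Camk2a, the alpha subunit gene (ENSMUSG00000024617.16, chr18:60925618-60988152, plus strand), was also low in control fat. It measured 3.12, 3.71 and 2.59 CPM in control libraries and 8.59, 14.5 and 5.21 CPM in knockout libraries. The groups did not overlap, as was so for 4201 of all genes tested (26.1%), but the 3 knockout libraries were widely spread, with replicate 2 the highest and replicate 3 the lowest. The means were 3.14 ± 0.562 and 9.43 ± 4.70 CPM (SD, n = 3), and the log2 fold change was 1.59 ± 0.380 (SE), which missed the threshold (edgeR adjusted p = 0.0696). It passed with DESeq2 (log2 fold change 1.57, adjusted p = 0.000922) and in edgeR without Cebpa_ASKO replicate 3 (1.86, adjusted p = 0.0289). Over all alternatives its adjusted p ran from 0.000922 to 0.185, and without Cebpa_ASKO replicate 2 the log2 fold change was 1.12 (edgeR adjusted p = 0.169).

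Camk2d, the delta subunit gene (ENSMUSG00000053819.16, chr3:126596302-126846326, plus strand), and Camk2g, the gamma subunit gene (ENSMUSG00000021820.18, chr14:20734875-20794088, minus strand), differed little between the genotypes. Camk2d measured 65.3, 73.1 and 66.5 CPM in control libraries and 61.3, 58.0 and 59.3 CPM in knockout libraries, so all 3 knockout libraries were slightly lower. Its log2 fold change was −0.20 ± 0.0792 (SE; edgeR adjusted p = 0.232), with a 95% interval from −0.35 to −0.04. Camk2g measured 28.7, 29.7 and 29.9 CPM in control libraries and 32.0, 34.3 and 33.7 CPM in knockout libraries, so all 3 knockout libraries were slightly higher. Its log2 fold change was 0.18 ± 0.0728 (SE; edgeR adjusted p = 0.234), with a 95% interval from 0.04 to 0.32. Neither passed the test. Their CPM ranges did not overlap between genotypes, as was so for 4201 of all genes tested (26.1%). In TPM the ranges of both genes overlapped.

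**Figure D1:**
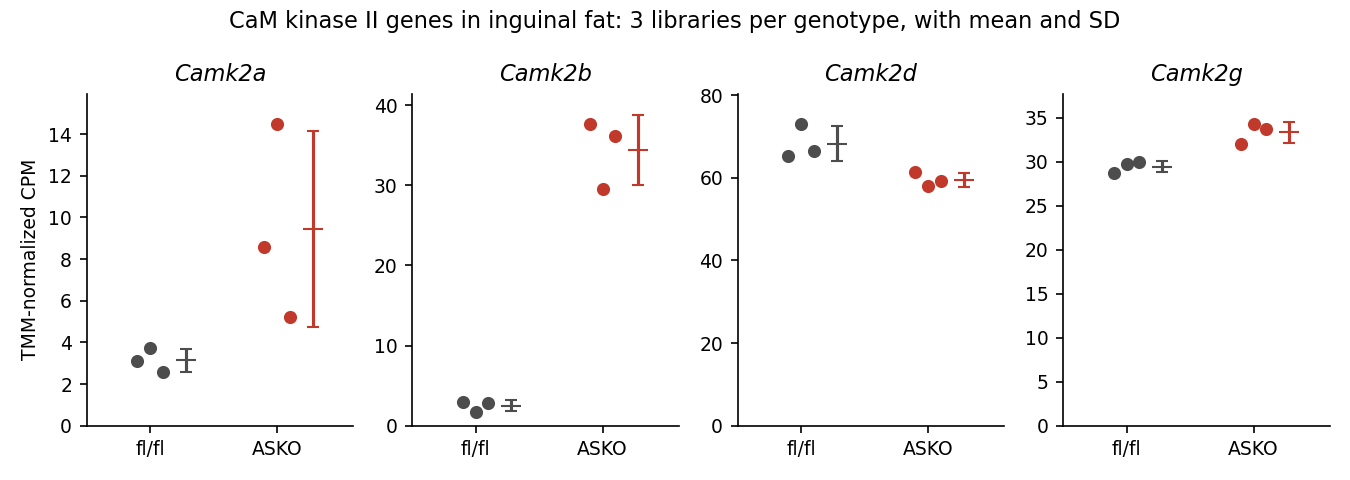
TMM-normalized CPM (vertical axes, each from 0 with its own scale) of Camk2a, Camk2b, Camk2d and Camk2g in the 3 Cebpa_fl/fl (grey) and 3 Cebpa_ASKO (red) libraries, replicates 1 to 3 from left to right, with mean and SD beside the points. Camk2b goes from 1.70 to 3.01 CPM in controls to 29.5 to 37.7 CPM in knockouts, Camk2a is spread from 5.21 to 14.5 CPM in knockouts, and Camk2d and Camk2g shift little.

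Compared per length, the order of the genes changed. In Cebpa_fl/fl the TPM were 23.9 ± 3.08 for Camk2d, 13.3 ± 1.05 for Camk2g, 1.18 ± 0.141 for Camk2a and 0.883 ± 0.249 for Camk2b (SD, n = 3), and only Camk2a and Camk2b overlapped among neighbours in this order. In Cebpa_ASKO they were 22.2 ± 3.51 for Camk2d, 16.5 ± 3.68 for Camk2g, 14.6 ± 1.66 for Camk2b and 3.95 ± 2.21 for Camk2a. In the knockout libraries Camk2b overlapped Camk2g, which overlapped Camk2d, while Camk2a lay below the other genes. Camk2b thus moved from the level of Camk2a to the level of Camk2g.

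As a share of the summed TPM of the 4 genes, Camk2b was 3.05%, 1.40% and 2.44% in Cebpa_fl/fl and 30.1%, 20.9% and 26.6% in Cebpa_ASKO. The share of Camk2d went from 60.7% ± 2.05 to 38.7% ± 1.81 and that of Camk2g from 33.9% ± 1.36 to 28.6% ± 2.79 (SD, n = 3). The share of Camk2a was 3.02% ± 0.366 and 6.84% ± 3.33. The summed TPM of the family were 35.2, 42.9 and 39.7 in controls and 48.3, 62.2 and 61.5 in knockouts, with no overlap. Without Camk2b, the sum of the other 3 genes was 34.2, 42.3 and 38.7 TPM in controls and 33.7, 49.2 and 45.2 TPM in knockouts, and these ranges overlapped.

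**Figure D2:**
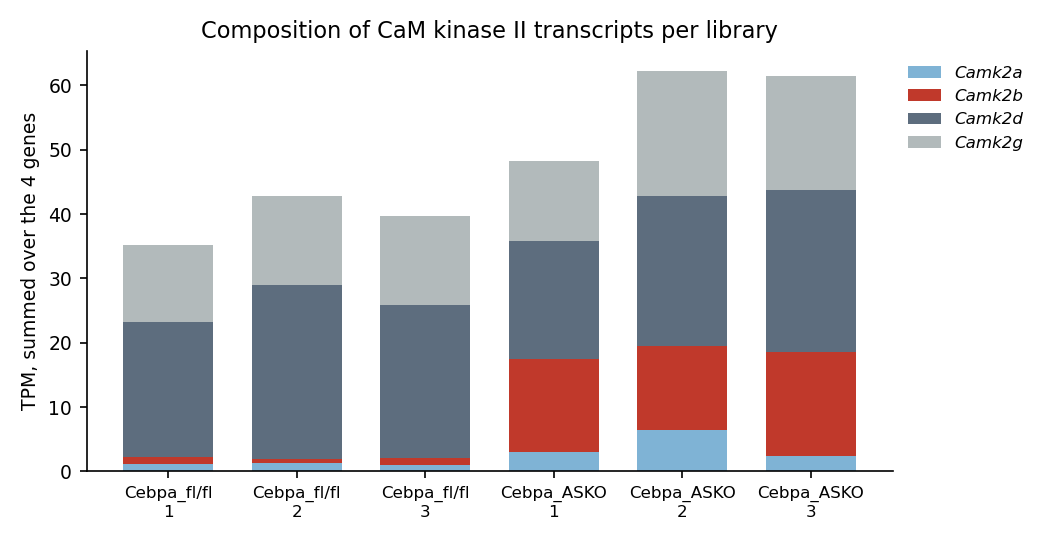
TPM of the 4 CaM kinase II genes stacked per library (vertical axis, TPM summed over the genes), with 3 Cebpa_fl/fl libraries on the left and 3 Cebpa_ASKO libraries on the right. Camk2b is a thin band of 1.40 to 3.05% in the controls and takes 20.9 to 30.1% in the knockouts, while the Camk2d and Camk2g bands keep similar heights.

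Alternative splicing of the linker between the kinase and association domains gives each gene several products. Of 15 annotated Camk2b transcripts, 11 had counts in at least 1 library. In Cebpa_ASKO the transcripts with the largest shares of Camk2b TPM were Camk2b-204, coding for 545 residues (24.9% ± 7.70), Camk2b-209, coding for 542 (20.9% ± 5.12), the processed transcript Camk2b-215 (19.9% ± 3.51) and Camk2b-201, coding for 503 (17.4% ± 4.26; SD, n = 3). Camk2b-205, which codes for 589 residues, made up 8.42% ± 3.41 in knockouts and was listed at 0 in all controls. Protein-coding transcripts together made up 71.0%, 73.2% and 76.9% of Camk2b TPM in knockouts. In controls they made up 40.1%, 67.4% and 93.7%, a wide spread that rests on 80 to 135 counts per library.

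The division among the coding transcripts is less certain than the gene totals, because these transcripts are nearly alike. Of 3974 distinct 31-base words of Camk2b-204, 34 (0.9%) were found in no other transcript, of 3993 words of Camk2b-209 there were 24 (0.6%), and of 1842 words of Camk2b-201 there were 0. Camk2b-215, which starts inside the gene, had 584 of 3298 (17.7%). TPM of protein-coding transcripts of Camk2b were 0.43, 0.41 and 0.91 in controls and 10.3, 9.53 and 12.55 in knockouts, so the difference between genotypes was also present in the coding transcripts alone.

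**Figure D3:**
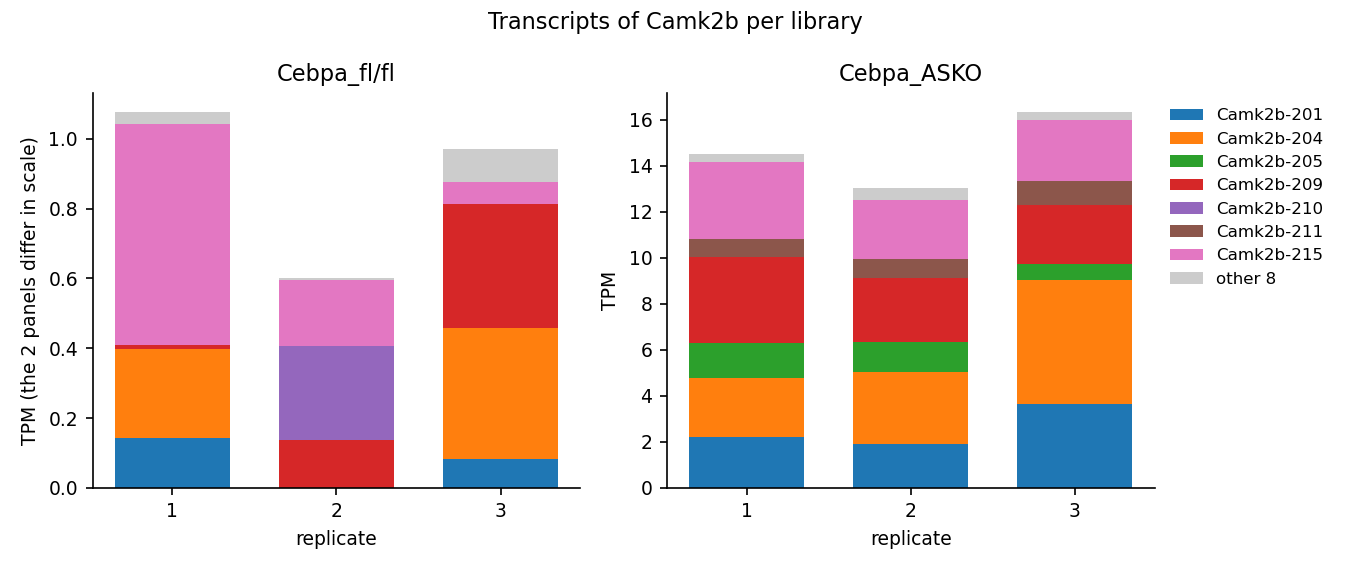
TPM of Camk2b transcripts stacked per library, Cebpa_fl/fl on the left and Cebpa_ASKO on the right, with vertical axes of different scale because totals are 0.602 to 1.08 TPM in controls and 13.0 to 16.3 TPM in knockouts. The knockout libraries share the same main transcripts, Camk2b-201, Camk2b-204, Camk2b-209 and Camk2b-215, whereas the controls differ among themselves.

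Camk2a counts fell on 3 of its 7 transcripts. Camk2a-203, coding for 478 residues from the start of the gene, held 55.6% ± 7.69 of Camk2a TPM in Cebpa_fl/fl and 50.4% ± 3.67 in Cebpa_ASKO. The rest lay on Camk2a-202 and Camk2a-204, which start inside the gene and code for 189 and 200 residues, with 44.4% ± 7.73 and 49.6% ± 3.67 together (SD, n = 3). Camk2a-202 alone held 14.8%, 17.4% and 13.2% in controls and 24.0%, 21.5% and 20.5% in knockouts, without overlap, but none of its 31-base words was particular to it, and the division of counts among alike transcripts is uncertain. Internal starts in this gene are known from skeletal muscle, where the short product, alpha-KAP, lacks the kinase domain and anchors the kinase to membranes of the sarcoplasmic reticulum. In Camk2d the main transcript was Camk2d-202, coding for 492 residues, with 47.1% ± 1.77 of TPM in controls and 46.3% ± 5.72 in knockouts. In Camk2g it was Camk2g-203, coding for 495 residues, with 39.8% ± 5.70 and 37.1% ± 8.64. The shares of Camk2a-203, Camk2d-202 and Camk2g-203 differed between genotypes by less than the larger of the SDs.

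Genes of skeletal muscle were also higher in the knockout libraries. All 22 genes of the muscle list had positive log2 fold changes, with a median of 2.08, and 17 were called higher, against 1.39% of all genes tested, among them Myh4, a fast myosin heavy chain (2.91 ± 0.379 (SE), edgeR adjusted p = 0.00836), and Acta1, skeletal actin (2.29 ± 0.393, edgeR adjusted p = 0.0245). The number called was 1, Myh4, when Cebpa_fl/fl replicate 1, Cebpa_fl/fl replicate 3 or Cebpa_ASKO replicate 1 was left out, 10 without Cebpa_fl/fl replicate 2 and 12 without Cebpa_ASKO replicate 2. The list summed to 833, 1145 and 983 CPM in controls and to 3838, 7248 and 2567 CPM in knockouts, a ratio of means of 4.61. In whole tissue, a change in the number of cells of a type and a change in RNA per cell cannot be told apart.

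Set against this sum, Camk2a and Camk2b had different orders among the knockouts. Camk2a was highest in Cebpa_ASKO replicate 2 and lowest of the knockouts in replicate 3, the same order as the muscle sum. Among the controls both were highest in replicate 2, but the muscle sum was lowest in replicate 1 and Camk2a in replicate 3. Per 1000 muscle CPM Camk2a was 3.75, 3.24 and 2.63 in controls and 2.24, 2.00 and 2.03 in knockouts, all 3 of which were lower than the controls. Camk2b was lowest of the knockouts in replicate 2, where the muscle sum was highest, and per 1000 muscle CPM it was 3.61, 1.48 and 2.85 in controls and 9.84, 4.07 and 14.1 in knockouts. The knockout values of this ratio were above all control values, the closest being 4.07 in Cebpa_ASKO replicate 2 and 3.61 in Cebpa_fl/fl replicate 1. The ratio is built on the Camk2b values that chose the family, so it is a description and not a test. Whether muscle in the dissected tissue has a part in the level of either gene was not tested.

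**Figure D4:**
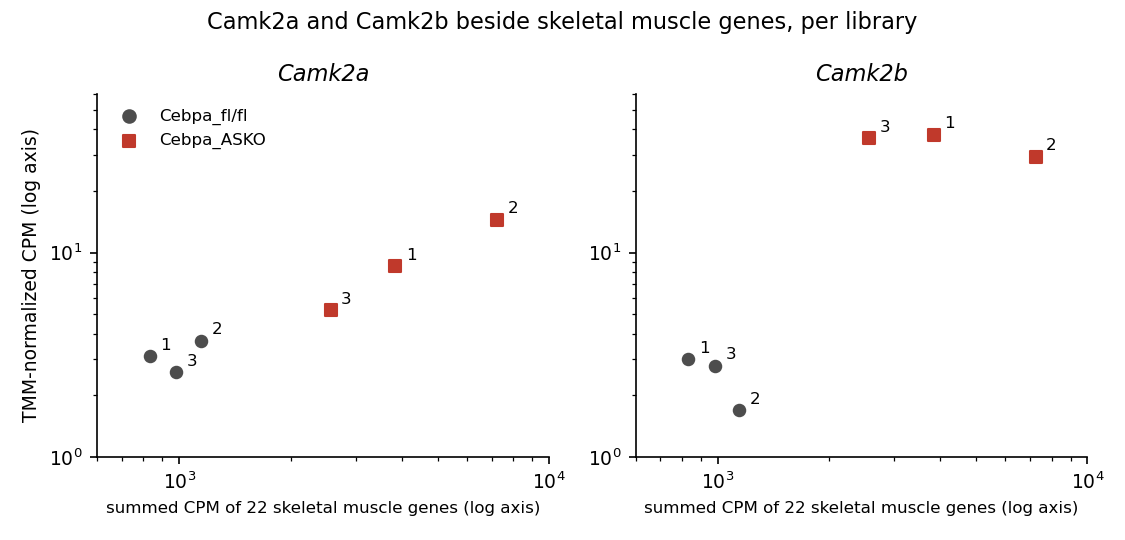
TMM-normalized CPM of Camk2a (left) and Camk2b (right) on the vertical axis against the summed CPM of 22 skeletal muscle genes on the horizontal axis, both log axes, for 3 Cebpa_fl/fl (grey circles) and 3 Cebpa_ASKO (red squares) libraries numbered by replicate. Camk2a is highest where muscle genes are highest, at 7248 CPM, and Camk2b is lowest of the 3 knockouts there.

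Markers of other cells that use these kinases were read in the same way. Of 12 neuronal markers 6 were tested and 0 called by edgeR, by DESeq2 or at an unadjusted p below 0.05, the sum ranged from 5.09 to 9.41 CPM in controls and from 6.56 to 8.97 CPM in knockouts, including Uchl1 and Stmn2, and Dbh, of noradrenaline synthesis, was at 0 in every library. Of 8 Schwann cell markers 1 was called, against 5.23% of all genes tested. It was S100b, which encodes a calcium-binding protein (3.18 ± 0.510 (SE), edgeR adjusted p = 0.0185). The Schwann sum, including the myelin genes Pmp22 and Mbp, neither of them called, was 352 to 415 CPM in controls and 502 to 637 CPM in knockouts. In 7 tested slow muscle markers, including Myh7, 1 was called, against 5.23% of all genes tested. It was Myl3 (2.55 ± 0.332, edgeR adjusted p = 0.00835). Of the 7, 2 had positive and 5 negative log2 fold changes, with a median of −0.22. The slow muscle sum was 4.14 to 12.0 CPM in controls and 6.49 to 18.2 CPM in knockouts.

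Markers of the remaining cell types of the depot were summed too. Smooth muscle and pericyte markers, including Acta2 and Rgs5, summed to 673 to 834 CPM in controls and 912 to 1092 CPM in knockouts. Of these 10, 1 was called, Abcc9 (0.84 ± 0.124, edgeR adjusted p = 0.014), against 5.23% of all genes tested. Of 10 adipocyte markers, including Cfd and Fabp4, 8 were called lower (Adipoq, Cfd, Cidec, Lpl, Plin1, Plin4, Pparg and Retn), against 3.84% of all genes tested. The adipocyte sum was 32623 to 39859 CPM in controls and 9019 to 11020 CPM in knockouts. Mammary epithelial markers, including Krt8 and Krt18, summed to 593 to 1200 CPM and 1559 to 1729 CPM, with 0 of 8 called by edgeR, 6 at an unadjusted p below 0.05 and 3 called by DESeq2. Macrophage markers, including Lyz2 and C1qa, overlapped (1034 to 2805 and 1690 to 2287 CPM), and endothelial markers, including Pecam1 and Cdh5, were 340 to 400 and 244 to 329 CPM, with 0 called by edgeR in both lists. At an unadjusted p below 0.05 there were 0 macrophage and 3 endothelial markers, and DESeq2 called 0 and 2. The part of these cells in the family's values was not tested.

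The kinase is switched on by calmodulin. Of its genes, Calm2 and Calm3 were called by neither edgeR nor DESeq2, and 0 had an unadjusted p below 0.05. Calm2 stood at 233 ± 13.3 CPM in controls and 256 ± 6.15 CPM in knockouts (log2 fold change 0.13, edgeR adjusted p = 0.503), and Calm3 was 174 ± 18.1 and 171 ± 11.3 CPM (−0.02, edgeR adjusted p = 0.948; SD, n = 3). The genes of the natural inhibitor proteins, which bind the active kinase, were likewise called by neither tool, with 0 at an unadjusted p below 0.05. Camk2n1 was 40.4, 61.8 and 38.1 CPM in controls and 46.3, 68.1 and 46.4 CPM in knockouts, with overlapping groups and a log2 fold change of 0.20 ± 0.236 (SE; edgeR adjusted p = 0.724). Camk2n2 was low, at 1.97 ± 0.257 and 1.46 ± 0.259 CPM (log2 fold change −0.43, edgeR adjusted p = 0.394).

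The other genes of calcium and calmodulin signalling were read from 9 lists with 66 genes, of which 64 were tested. Of these, 44 had positive and 20 negative log2 fold changes with a median of 0.10, and 4 were called higher and 1 lower, against 5.23% of all genes. None of 7 tested genes of other CaM kinases was called by edgeR, nor any of 9 phosphatase and calcineurin genes, 4 calmodulin-binding buffer genes or 12 genes of transcription regulators that CaM kinases act on, such as Hdac4, Mef2d and Creb1. Medians of these lists were −0.04, 0.09, 0.27 and 0.06 on the log2 scale, and 1, 2, 1 and 2 genes had an unadjusted p below 0.05. DESeq2 called 1 gene in these lists, the calcineurin regulator Rcan3. In 11 genes of calcium release and store entry, 1 was called by edgeR, in 7 tested genes of calcium pumps 2, and in 9 genes of voltage-gated channel subunits 2. The medians were 0.28, −0.25 and 0.40, and 4, 3 and 4 genes had an unadjusted p below 0.05. DESeq2 called 3, 2 and 3 genes in these lists, among them Itpr1, Itpr2 and Cacnb1, which edgeR did not call.

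Of the 5 genes called by edgeR, 3 also stand in the muscle list. They are Ryr1, the calcium release channel of skeletal muscle (2.05 ± 0.423 (SE), edgeR adjusted p = 0.0436), Atp2a1, the calcium pump of fast fibres (2.38 ± 0.417, edgeR adjusted p = 0.0264), and Cacna1s, the voltage sensor of skeletal muscle (2.14 ± 0.377, edgeR adjusted p = 0.0274). All 3 were highest in Cebpa_ASKO replicate 2, as was the muscle sum, of which they are a part. All 3 missed the threshold when Cebpa_ASKO replicate 1 or any 1 of the control libraries was left out (edgeR adjusted p = 0.0518 to 0.139). All 3 also missed it with the replicate number as a block (edgeR adjusted p = 0.0723 to 0.104). With limma at either pseudocount of TPM, Ryr1 and Cacna1s missed it (limma adjusted p = 0.0619 to 0.0881). Cacna2d1, an auxiliary subunit of voltage-gated channels, was 18.6, 25.7 and 20.4 CPM in controls and 33.3, 37.5 and 31.6 CPM in knockouts (0.66 ± 0.140, edgeR adjusted p = 0.0468). Its call was lost with total count scaling (edgeR adjusted p = 0.0584) and with limma at either pseudocount (limma adjusted p = 0.19). It was also lost with the replicate number as a block (edgeR adjusted p = 0.0608). The same held with each single library left out except Cebpa_fl/fl replicate 2 (edgeR adjusted p = 0.0845 to 0.186). Atp2b4, a calcium pump of the plasma membrane that calmodulin activates, fell. It was 83.7, 148 and 121 CPM in controls and 18.7, 17.2 and 19.8 CPM in knockouts, with no overlap (−2.66 ± 0.214, edgeR adjusted p = 0.00144).

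Among the pathway genes, Atp2b4 passed the test with each library left out, with log2 fold changes from −2.86 to −2.47. The number of pathway genes called was 2 without Cebpa_fl/fl replicate 1, 3 without Cebpa_fl/fl replicate 2, 1 without Cebpa_fl/fl replicate 3 and 1 without Cebpa_ASKO replicate 1.

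**Figure D5:**
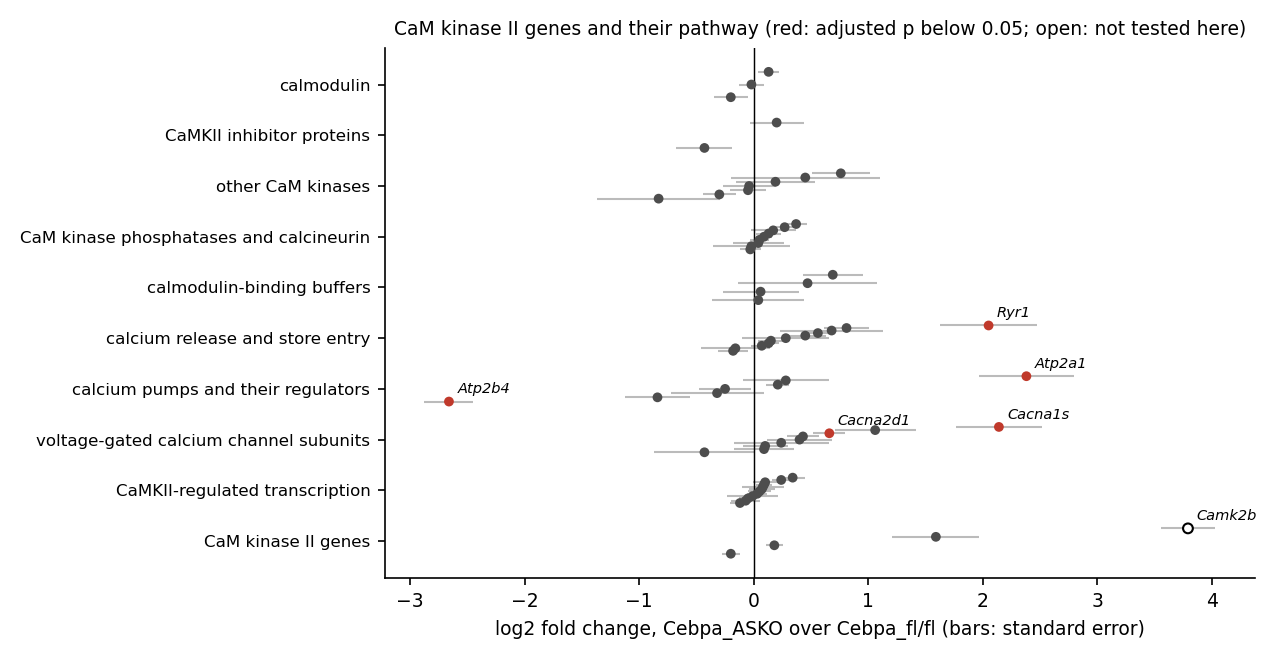
Log2 fold change of Cebpa_ASKO over Cebpa_fl/fl (horizontal axis, bars are SE) for the tested genes of the 9 pathway lists and the 4 CaM kinase II genes, 1 row per list, with genes at an edgeR adjusted p below 0.05 in red and named, and Camk2b open because its rise chose the family. Most genes lie near 0, Atp2b4 is at −2.66 on the left, and Ryr1, Atp2a1 and Cacna1s lie between 2.05 and 2.38.

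The genes whose levels over the 6 libraries were most like those of Camk2b were sought among 12520 tested genes, by the root mean square difference of centred log2 CPM. They were Mapt, the microtubule-binding protein tau (0.641), Comp, a cartilage matrix protein (0.692), S100b (0.720), Myh4 (0.784) and Kcna2, a potassium channel subunit (0.813). Mapt had 5.17, 2.65 and 2.84 CPM in controls against 25.1, 26.7 and 17.3 CPM in knockouts, and Kcna2 had 8.24, 5.11 and 5.70 CPM against 33.9, 31.9 and 24.5 CPM. Each of the 5 was higher in every knockout library than in any control library, which follows from the way they were sought. Within the family the distances to Camk2b were 1.33 for Camk2a, 1.83 for Camk2g and 2.02 for Camk2d.

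The neighbours of Camk2b on chromosome 11 were also read, a choice made after its values were seen. Of 13 tested genes within 250 kb, 1 was called, against 5.23% of all genes tested. It was Pgam2, a phosphoglycerate mutase of muscle 166 kb away (log2 fold change 2.05, edgeR adjusted p = 0.0453), and its call was lost with each single library left out except Cebpa_ASKO replicate 3 (edgeR adjusted p = 0.0632 to 0.141). The nearest tested gene, Ykt6, 1.86 kb away, had a log2 fold change of −0.03 (edgeR adjusted p = 0.88), and Nudcd3, 39.3 kb away, had −0.01 (edgeR adjusted p = 0.98). Neither was called.

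Since the deleted gene encodes a transcription factor, the sequence just before the start of Camk2b is shown, although these data hold no measure of binding. It covers the 250 bases before the RefSeq start (GRCm38.p6, chr11:6065749-6065998, minus strand, 5′ to 3′), a start that Camk2b-204 and Camk2b-209 share, and capitals mark each CpG.
Camk2b: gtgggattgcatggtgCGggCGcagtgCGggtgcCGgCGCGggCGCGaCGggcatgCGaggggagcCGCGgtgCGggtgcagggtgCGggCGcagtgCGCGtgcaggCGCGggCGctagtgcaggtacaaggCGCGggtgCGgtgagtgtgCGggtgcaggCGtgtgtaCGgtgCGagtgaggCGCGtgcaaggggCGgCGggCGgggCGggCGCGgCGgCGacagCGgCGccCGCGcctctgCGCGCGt

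The stretch is 78.4% G and C and holds 44 CpG, a number reached by 0.539% of 32851 RefSeq start windows cut to the same length, whose median is 6. It holds 0 matches, on either strand, to the C/EBP letters TTNNGNAA, which 36.8% of all windows hold, 0 to the MEF2 motif (3.2%) and 0 to the E-box letters CANNTG (66.2%). The motifs were searched as exact letters, and no match says only that these letters are not in this window.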

How the data were processed

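Whole iWAT of 6 mice was sequenced. Per the submitters' processing notes, the authors used kallisto 0.44.0 and named the builds GRCm38.p6 and GRCh38.p12, with no role given for each. The deposited files hold estimated counts and TPM per transcript, and TPM per gene, by the authors. Transcripts were matched to GENCODE vM21 by identifier (116816 of 118489, with 99.5 to 99.6% of counts), summed per gene symbol (35999 of 36144) and rounded. The main test was edgeR 4.0.16 (R 4.3.3) quasi-likelihood, with TMM scaling (factors 0.956 to 1.06), filterByExpr and Benjamini-Hochberg adjustment over all 16069 genes tested of 23368 with a count. DESeq2 1.42.0 and limma 3.58.1 were alternatives. Scripts were tested on simulated data. Promoter sequences are from RefSeq and transcript sequences from GENCODE.

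Members and lists were chosen with earlier results of these data known. Named genes are the 4 members, Cebpa, the calmodulin and inhibitor genes, called pathway genes, the 2 of highest CPM and any called gene of each marker list (for muscle and adipocytes as a count where many), and the 5 genes nearest to Camk2b (mean log2 CPM 1 or more). Neighbouring genes, 31-base words and sequence windows were added after values were seen. A few members of the lists and neighbouring genes are not reported here. Replicate libraries differed beyond counting noise. Intervals are normal ones from the SE.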

Additional observations from a re-analysis of the deposited data

How the results depend on the processing

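Camk2b kept its direction in all 14 alternatives, from 3.56 to 3.97 except with limma on log2(TPM + 1), where the pseudocount shrinks low values (3.06). Leaving out 1 library gave 3.56 to 3.94. Camk2d (−0.23 to −0.10) and Camk2g (0.14 to 0.29) kept direction and were called in none. Camk2a was called with DESeq2 (1.57) and without Cebpa_ASKO replicate 3 (1.86), and leaving out 1 library gave 1.12 to 1.86. The Camk2b share of family TPM in Cebpa_ASKO stayed between 23.7% and 28.3% with 1 Cebpa_ASKO library left out. The muscle ratio stayed between 3.25 and 5.62 with any 1 library left out. Taken from counts instead of TPM, the protein-coding share of Camk2b in Cebpa_ASKO was 77.2%.

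The genes called numbered 1802 with DESeq2 (37.0% higher, against 26.5%), and 311 to 922 with 1 library left out, namely 508 without Cebpa_fl/fl replicate 1 (12.8% higher), 502 without Cebpa_fl/fl replicate 3, 311 without Cebpa_ASKO replicate 1 (10.6% higher) and 363 without Cebpa_ASKO replicate 2. Pathway genes called numbered 5, but 9 with DESeq2, 3 with limma at either pseudocount of TPM (1 or 0.1), and 1 to 4 with 1 library left out. The cause of these changes was not tested. The labels do not say that equal replicate numbers share a litter, and the deviations of same-numbered libraries correlated at 0.0662, 0.0278 and −0.201. With a replicate block, 370 genes, 1 pathway gene and 11 muscle genes were called, and Pgam2 (edgeR adjusted p = 0.0535) was not. Precision is limited by 3 libraries per genotype and, for Camk2b in controls, by 80 to 135 counts.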
